A study of Mus musculus with 6 samples.

Results

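The 9 genes described here encode the entry of catecholamine signalling in the heart, from the receptors (Adrb1, Adra1a and Adra1b) through the Gq protein α subunit (Gnaq) and its brake (Rgs2) to the receptor kinases (Grk2 and Grk5) and the cardiac adenylyl cyclases (Adcy5 and Adcy6). They were chosen by gene name, and each name matched 1 row of the 56748 genes in the deposited count table. All 9 are protein-coding and passed the filter on low counts, with 13888 genes tested in all, and positions are given on GRCm39, the build in the submitters' processing notes. The counts came from heart tissue RNA of 6 young adult male mice on a C57Bl/6 background, 3 Pontin cTG and 3 non-transgenic littermates (WT). The transgene is human Pontin (Ruvbl1) cDNA with a flag tag, driven in cardiomyocytes by the mouse α-myosin heavy chain promoter, and Pontin is a member of the AAA+ family of ATPases. Both groups received angiotensin II (Ang-II) at 1.5 mg/kg/day for 14 days from a mini-osmotic pump, so the comparison is of genotypes in stressed hearts and no vehicle-treated group was analysed here.

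β1-adrenergic receptors couple to Gs, which switches on adenylyl cyclase, raises cAMP and activates protein kinase A, the main route by which noradrenaline increases heart rate and contractility. α1-adrenergic receptors and the angiotensin AT1 receptor couple to Gq, which activates phospholipase Cβ and is a classical driver of hypertrophic growth. RGS proteins speed the return of the α subunit to its inactive state, and G protein-coupled receptor kinases phosphorylate active receptors so that arrestins bind and the signal ends.

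The libraries held between 12436822 and 16888124 counts assigned to genes and were deeper in Pontin cTG (14584102 or more) than in WT (13194038 or fewer). Cardiomyocyte markers were abundant in all 6 libraries, and the 8 of them summed to between 707990 and 815107 normalised counts, with Myh6 (α-myosin heavy chain) the most abundant. Normalised counts here are counts scaled by effective library size (TMM). Myh6, whose promoter drives the transgene, had 223198, 338851 and 233224 in WT and 243503, 264811 and 192476 in Pontin cTG, so the groups overlapped. Of 5 atrial markers, Myl7, Sln and Bmp10 had at most 6, 1 and 1 counts in any library, Myl4 had 8 to 51, and Nppa, which stressed ventricle also expresses, had 416 to 9011 counts, with the highest counts of Myl4 and Nppa in Pontin cTG replicate 2. As a check of the genotype, mouse Ruvbl1 had 216, 221 and 217 normalised counts in WT and 250, 250 and 240 in Pontin cTG, a log2 difference of 0.18 (SE 0.12, Benjamini-Hochberg adjusted p = 0.999 by edgeR). This does not measure the transgene, whose human sequence may not be counted under the mouse gene.

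Pontin cTG replicate 2 stood apart from the other 5 libraries. On the first principal component, which carried 48.6% of the variance, it lay at 50.9 and the others between -23.1 and 16.2. It was the lowest library for 30.7% of the genes tested, against 11.1% to 17.7% for the others. The log2 differences of the 9 genes and the ratios between them are therefore also given without this heart.

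None of the 9 genes differed between Pontin cTG and WT hearts by edgeR's quasi-likelihood test after Benjamini-Hochberg adjustment over all genes, and the adjusted p was 0.999 for each. The background was the same, since 0% of the 13888 genes passed. Before adjustment, 2.05% of all genes (285 genes) and 0 of the 9 passed a threshold of 0.05. DESeq2 called 1 gene after adjustment, Scd4, and none of the 9. Of the 9, 3 were higher and 6 lower in Pontin cTG, with a median log2 difference of -0.071, beside 0.0013 over all genes tested. Without Pontin cTG replicate 2, the count turned to 6 higher and 3 lower.

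**Figure D1:**
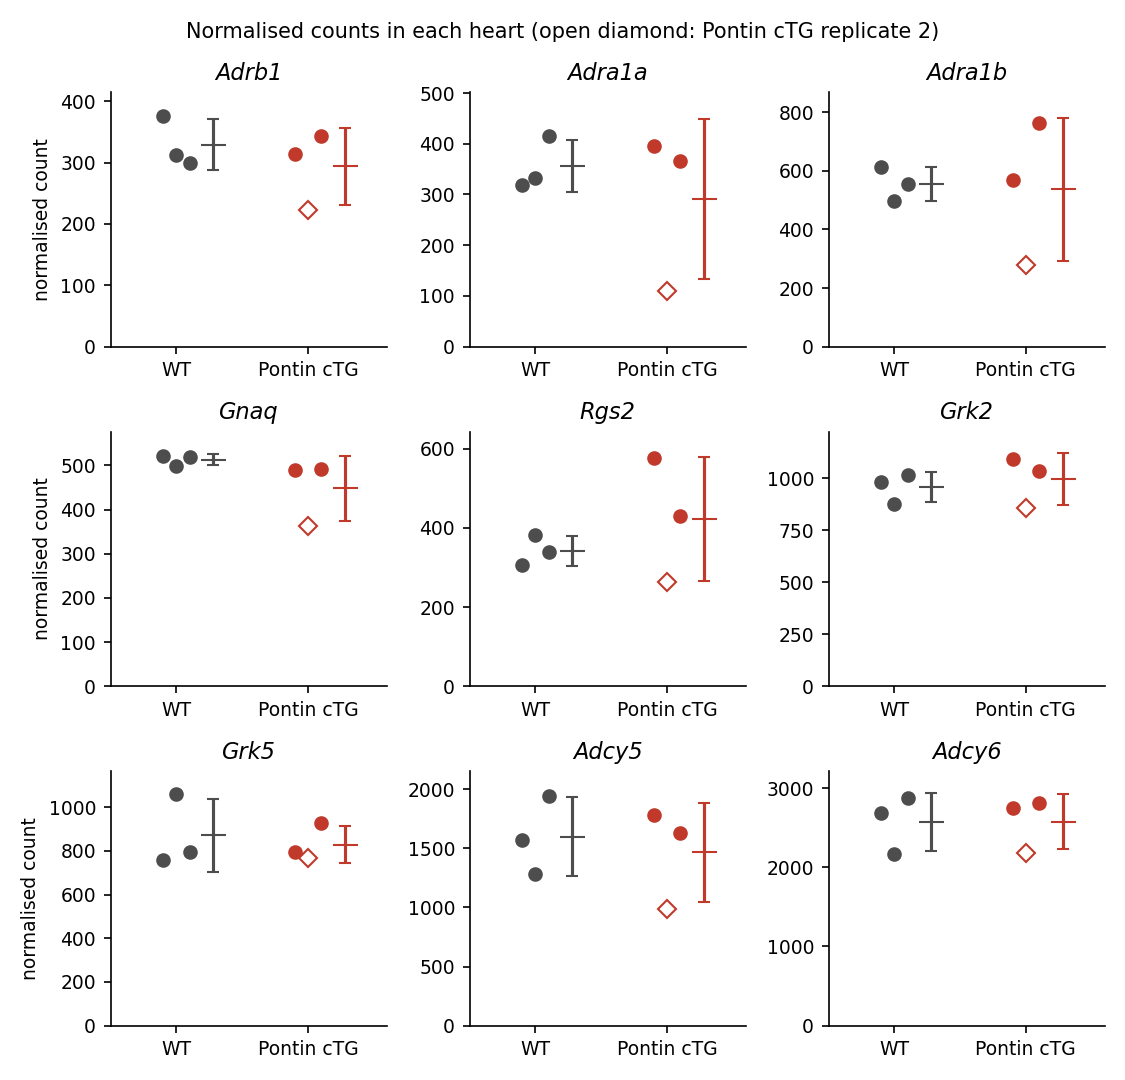
Normalised counts (y axis, from 0) of the 9 genes in 3 WT (grey) and 3 Pontin cTG (red) hearts, with the mean and SD of each group beside the points and Pontin cTG replicate 2 drawn as an open diamond. The diamond is the lowest of the 6 points in 7 of the 9 panels, and WT and Pontin cTG points do not overlap in the Gnaq panel alone.

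Among the receptors, Adrb1 (ENSMUSG00000035283, chr19:56710631-56721545, plus strand) encodes the β1-adrenergic receptor, the main β receptor of heart muscle. Adrb1 had 377, 312 and 300 normalised counts in WT hearts and 314, 223 and 343 in Pontin cTG hearts, means of 329 ± 41.4 and 294 ± 62.4 (SD, n = 3 each). The groups overlapped, and Pontin cTG replicate 2 was the lowest heart, at 67.9% of the WT mean. The log2 difference was -0.17 (SE 0.18, 95% interval -0.58 to 0.25), and -0.0020 without that heart.

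Adra1a (ENSMUSG00000045875, chr14:66872700-67008617, plus strand) and Adra1b (ENSMUSG00000050541, chr11:43665433-43792037, minus strand) encode the α1A and α1B receptors, both coupled to Gq. Adra1a had 319, 333 and 416 normalised counts in WT and 396, 110 and 366 in Pontin cTG. The low value in Pontin cTG replicate 2 was 30.8% of the WT mean, whereas the other Pontin cTG hearts lay within the WT range. The group means were 356 ± 52.2 and 291 ± 157 (SD, n = 3 each), and the log2 difference of -0.30 (SE 0.39, 95% interval -1.17 to 0.58) became 0.10 (SE 0.14) when that heart was left out. Adra1b had 613, 497 and 556 normalised counts in WT and 568, 279 and 761 in Pontin cTG. Its lowest and its highest heart were both Pontin cTG, at 50.3% and 137% of the WT mean. The log2 difference in Adra1b was -0.05 (SE 0.30, 95% interval -0.73 to 0.63) with all hearts and 0.26 (SE 0.15, 95% interval -0.061 to 0.58) without Pontin cTG replicate 2.

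The other adrenergic receptors described here were scarce. In CPM (counts scaled to library size) per kb of gene length, the median level over 6 libraries was 11.8 for Adra1b, 6.57 for Adrb1 and 2.84 for Adra1a, beside 1.75 for Adra1d (α1D). The α2 receptors Adra2b and Adra2c were lower still, with medians of 0.25 and 0.12. Adrb3 (β3) had 1, 2 and 0 counts in WT and 0 in each Pontin cTG heart, and Adra2a had 0 in each WT heart and 0, 1 and 1 in Pontin cTG. Adrb3, Adra2a and Adra2c were not tested. Adra1d and Adra2b were tested and did not pass, with log2 differences of -0.29 (SE 0.30) and -0.44 (SE 0.39). Adra1d was at -0.077 without Pontin cTG replicate 2 and at -0.45 without Pontin cTG replicate 3. Adra2b was at -0.24 without Pontin cTG replicate 3 and at -0.58 without WT replicate 1.

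Gnaq (ENSMUSG00000024639, chr19:16110195-16364827, plus strand) encodes the α subunit of Gq. It had 522, 498 and 519 normalised counts in WT and 490, 363 and 491 in Pontin cTG. Every Pontin cTG heart was below every WT heart, although replicates 1 and 3 lay 7 to 8 counts below the lowest WT heart. Groups did not overlap in either direction for 1 of the 9 genes, against 8.33% of all genes tested. WT hearts were close to each other, at 513 ± 13.0, and Pontin cTG hearts averaged 448 ± 73.7 (SD, n = 3 each). The log2 difference was -0.20 (SE 0.15, 95% interval -0.53 to 0.14) with an adjusted p of 0.999 by edgeR, and it shrank to -0.064 (SE 0.11) without Pontin cTG replicate 2. In the counting table, the pseudogene Gm10819 lies on the opposite strand within Gnaq and had 8.8% as many counts, with no exonic base shared in the GENCODE M21 annotation.

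Rgs2 (ENSMUSG00000026360, chr1:143875076-143879899, minus strand) encodes an RGS protein that acts preferentially on Gq. It had 305, 381 and 340 normalised counts in WT and 577, 263 and 429 in Pontin cTG, and its log2 difference was the highest of the 9. Pontin cTG replicates 1 and 3 lay above all WT hearts, at 169% and 125% of the WT mean, and replicate 2 lay below them, at 76.8%. The means were 342 ± 38.2 and 423 ± 157 (SD, n = 3 each), and the log2 difference was 0.30 (SE 0.25, 95% interval -0.27 to 0.88, adjusted p = 0.999 by edgeR). Without Pontin cTG replicate 2 the log2 difference was 0.55 (SE 0.15, 95% interval 0.22 to 0.89) and an adjusted p = 0.889 by edgeR, whereas without Pontin cTG replicate 1 it was 0.022. In the fit without replicate 2, Rgs2 was among the 4.91% of 13978 genes that passed a threshold of 0.05 before adjustment, and the other 8 genes were not. After adjustment 0.0215% passed, the genes Egr1, Impact and Scd4, named after their values were seen and not among the 9.

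**Figure D2:**
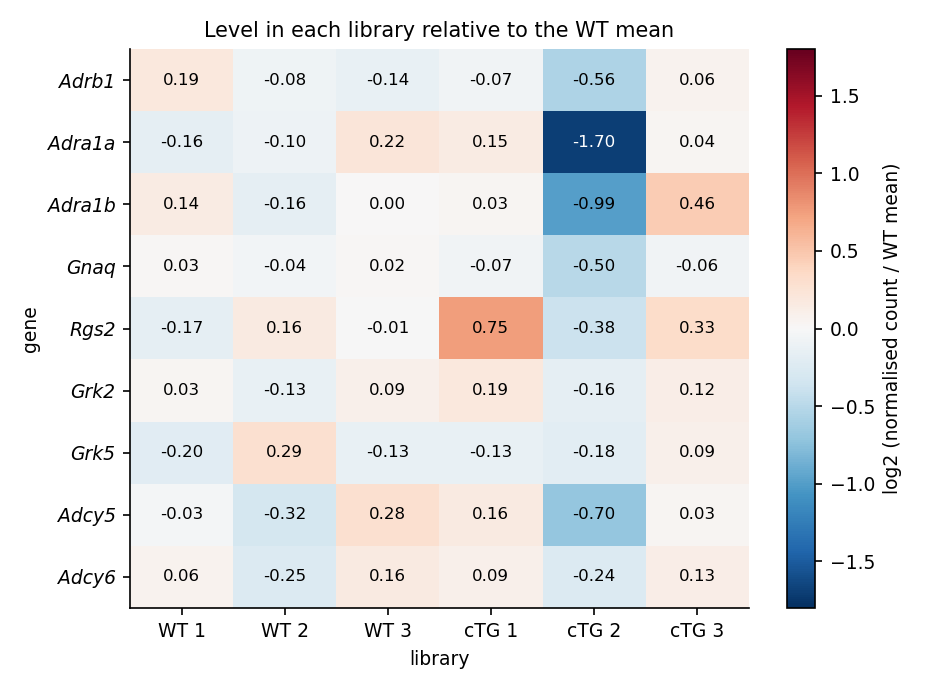
Log2 of each library's normalised count over the WT mean for the 9 genes (rows) in the 6 libraries (columns), red above and blue below the WT mean. The column of Pontin cTG replicate 2 is blue in all rows, deepest for Adra1a, and the strongest red cell is Rgs2 in Pontin cTG replicate 1.

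The promoters of Rgs2, Adrb1 and Gnaq are shown because they had the highest log2 difference, encode the main β receptor, and had groups that did not overlap, in this order. Sequences are the 250 bases before the RefSeq start on GRCm38.p6, read 5′ to 3′ on the gene's strand, and a different build from that of the count table. Capitals mark TGACG, the core of the cAMP response element bound by CREB-family factors, or its reverse complement CGTCA. The windows are chr1:144004150-144004399 (minus strand) for Rgs2, chr19:56721867-56722116 (plus strand) for Adrb1 and chr19:16132434-16132683 (plus strand) for Gnaq.

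Rgs2: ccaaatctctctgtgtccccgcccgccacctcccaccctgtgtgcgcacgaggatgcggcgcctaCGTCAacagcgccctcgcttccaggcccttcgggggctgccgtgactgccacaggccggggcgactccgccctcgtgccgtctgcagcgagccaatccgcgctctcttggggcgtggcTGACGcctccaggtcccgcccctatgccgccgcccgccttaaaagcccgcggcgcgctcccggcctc

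Adrb1: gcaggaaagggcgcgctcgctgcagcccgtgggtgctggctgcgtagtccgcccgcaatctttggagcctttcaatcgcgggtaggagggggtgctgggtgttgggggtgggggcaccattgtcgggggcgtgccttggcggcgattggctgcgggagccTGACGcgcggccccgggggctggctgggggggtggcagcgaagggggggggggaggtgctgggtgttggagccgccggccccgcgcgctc

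Gnaq: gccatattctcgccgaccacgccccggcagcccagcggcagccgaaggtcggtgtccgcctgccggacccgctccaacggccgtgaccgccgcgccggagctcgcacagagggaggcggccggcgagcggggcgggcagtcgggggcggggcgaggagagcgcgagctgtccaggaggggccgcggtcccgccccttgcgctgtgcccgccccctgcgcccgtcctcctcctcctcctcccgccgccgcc

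The Rgs2 window held 2 matches, whose first bases lie at -185 and -67 from the start, the Adrb1 window held 1 at -90, and the Gnaq window held none. Windows were also found for Adcy5, Adra1b and Grk5, and these held none either. Among 32851 RefSeq promoter windows of the same length, 17.8% held at least 1 match on either strand and 3.90% held 2 or more. The full palindrome TGACGTCA, which contains both forms of the core, occurred in 1.55% of windows and in none of the 7 windows found for 6 of the genes (Adcy5, Adra1b, Adrb1, Gnaq, Grk5 and Rgs2). A match of letters is a description of the window and not evidence of a bound site.

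Grk2 (ENSMUSG00000024858, chr19:4336029-4356250, minus strand) encodes the kinase that dampens β-adrenergic signalling in the failing heart. Of the 9 genes it varied least, with 1.28 times as many normalised counts in its highest heart as in its lowest. It had 981, 876 and 1017 normalised counts in WT and 1095, 855 and 1038 in Pontin cTG. The means of 958 ± 73.3 and 996 ± 125 (SD, n = 3 each) differed by 0.06 on the log2 scale (SE 0.14, 95% interval -0.26 to 0.37), and by 0.15 (SE 0.11) without Pontin cTG replicate 2. Grk5 (ENSMUSG00000003228, chr19:60878187-61084406, plus strand) encodes a kinase held at the plasma membrane that can also enter the nucleus of cardiomyocytes. It had 757, 1061 and 794 normalised counts in WT and 793, 766 and 926 in Pontin cTG. Its highest heart was WT replicate 2 and its lowest WT replicate 1, so the Pontin cTG hearts lay within the WT range. The log2 difference was -0.07 (SE 0.16, 95% interval -0.44 to 0.30), and -0.017 (SE 0.15) without Pontin cTG replicate 2. Zfp950 overlaps Grk5 on the opposite strand and had 1201 counts in total, 23.5% of those of Grk5, with no exonic base shared in GENCODE M21. The strand setting of the counting is not given in the sources used here.

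Adcy5 (ENSMUSG00000022840, chr16:34975247-35126108, plus strand) and Adcy6 (ENSMUSG00000022994, chr15:98487854-98507957, minus strand) encode the main adenylyl cyclases of cardiomyocytes, which calcium inhibits. Adcy5 had 1567, 1282 and 1947 normalised counts in WT and 1781, 986 and 1631 in Pontin cTG. Pontin cTG replicate 2 was again lowest, at 61.7% of the WT mean, and the other Pontin cTG hearts lay within the WT range. The log2 difference was -0.13 (SE 0.24, 95% interval -0.67 to 0.42), and 0.094 (SE 0.16) without that heart. Adcy6 had 2685, 2166 and 2871 normalised counts in WT and 2746, 2177 and 2808 in Pontin cTG. The low hearts were WT replicate 2 and Pontin cTG replicate 2, and the group means of 2574 ± 365 and 2577 ± 348 (SD, n = 3 each) gave a log2 difference of 0.0019 (SE 0.17, 95% interval -0.38 to 0.38), and 0.11 (SE 0.13) without Pontin cTG replicate 2.

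**Figure D3:**
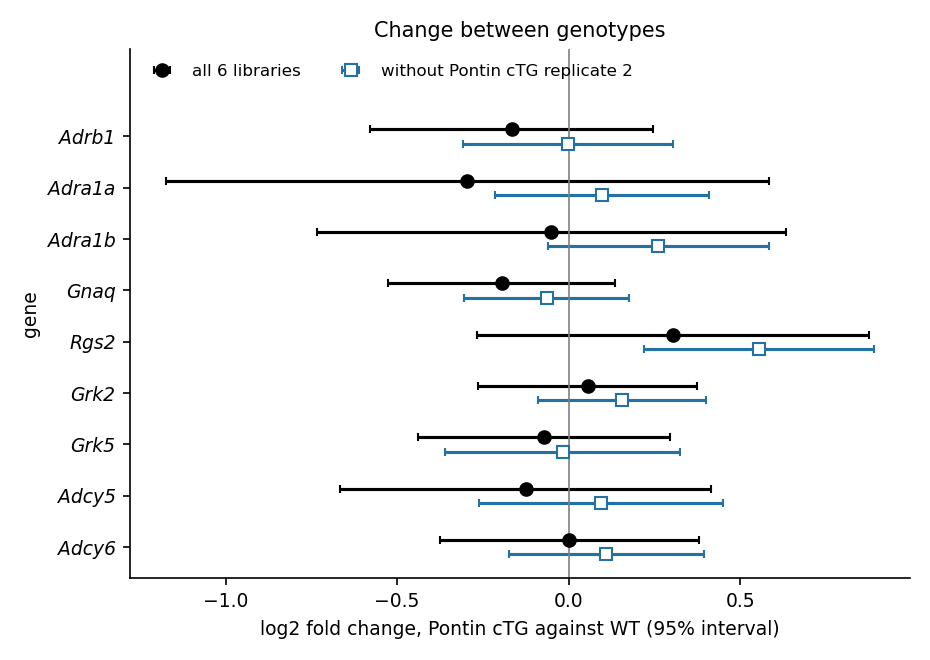
Log2 fold change of Pontin cTG against WT with its 95% interval (x axis) for the 9 genes, from all 6 libraries (filled circles) and without Pontin cTG replicate 2 (open squares). All intervals from 6 libraries include 0, and without Pontin cTG replicate 2 the interval of Rgs2 alone, 0.22 to 0.89, lies above 0.

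Ratios between related genes within a heart, which do not depend on scaling between libraries, were compared by an exact two-sided permutation test, for which 0.1 is the smallest p that 3 against 3 allows. Rgs2 over Gnaq, the brake relative to its target, was 0.997, 1.31 and 1.12 per gene length in WT and 2.01, 1.23 and 1.49 in Pontin cTG. Pontin cTG replicates 1 and 3 exceeded all WT hearts, and replicate 2 lay within them (log2 difference 0.45, exact p = 0.2). Adra1b over Adra1a was 4.96, 3.85 and 3.45 in WT and 3.70, 6.57 and 5.38 in Pontin cTG (log2 difference 0.33, exact p = 0.3). The size of this ratio depends on the length used, 8728 bases for Adra1a here and 4282 in its longest coding transcript in GENCODE M21. The shorter length would lower the ratio alike in all hearts and leave the log2 difference as it is. Adcy6 over Adcy5 was 1.81, 1.79 and 1.56 in WT and 1.63, 2.34 and 1.82 in Pontin cTG (log2 difference 0.15, exact p = 0.4). Grk2 over Grk5 was 2.04, 1.30 and 2.02 in WT and 2.18, 1.76 and 1.77 in Pontin cTG (log2 difference 0.11, exact p = 0.8). The groups overlapped for all 4 ratios, and over these 4 tests the adjusted p from the exact permutation test was 0.533, 0.533, 0.533 and 0.8 in this order. Without Pontin cTG replicate 2 the log2 differences were 0.61 for Rgs2 over Gnaq, 0.14 for Adra1b over Adra1a, 0.0067 for Adcy6 over Adcy5 and 0.16 for Grk2 over Grk5, with exact permutation p = 0.1, 0.6, 0.9 and 0.8 before adjustment, 0.1 being the smallest that 3 against 2 allows. Without Pontin cTG replicate 1, the log2 difference was 0.26 for Rgs2 over Gnaq, 0.56 for Adra1b over Adra1a and 0.27 for Adcy6 over Adcy5. The exact permutation p before adjustment was 0.3, 0.2 and 0.1 in this order, so here Adcy6 over Adcy5 reached the smallest value. Grk2 over Grk5 was at 0.0093 without that heart.

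Levels of the 9 genes spanned about an order of magnitude. In CPM per kb, Adcy6 had the highest median (28.4, range 22.7 to 30.0 over the 6 libraries) and was above the next gene in all 6 libraries. Grk2 (15.8) and Adcy5 (15.8) followed, Grk2 above Adcy5 in 4 of 6 libraries. Adra1b came next at 11.8 (range 5.86 to 16.0), below Adcy5 in all 6 libraries and above Grk5 in 4. Grk5 (7.98), Rgs2 (7.06), Adrb1 (6.57) and Gnaq (5.68) followed with ranges that overlapped between neighbours, Grk5 above Rgs2 and Rgs2 above Adrb1 in 5 of 6 libraries each and Adrb1 above Gnaq in all 6. Adra1a was the lowest in all 6 libraries, at 2.84 (range 0.891 to 3.38). With the length of the longest coding transcript in GENCODE M21 in place of the length in the table, the ranks stayed as they were, the medians of Grk2 and Adcy5 were 21.01 and 16.2 with Grk2 above in all 6 libraries, and the median of Adra1a was 5.79, with Gnaq above it in 4 of 6.

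**Figure D4:**
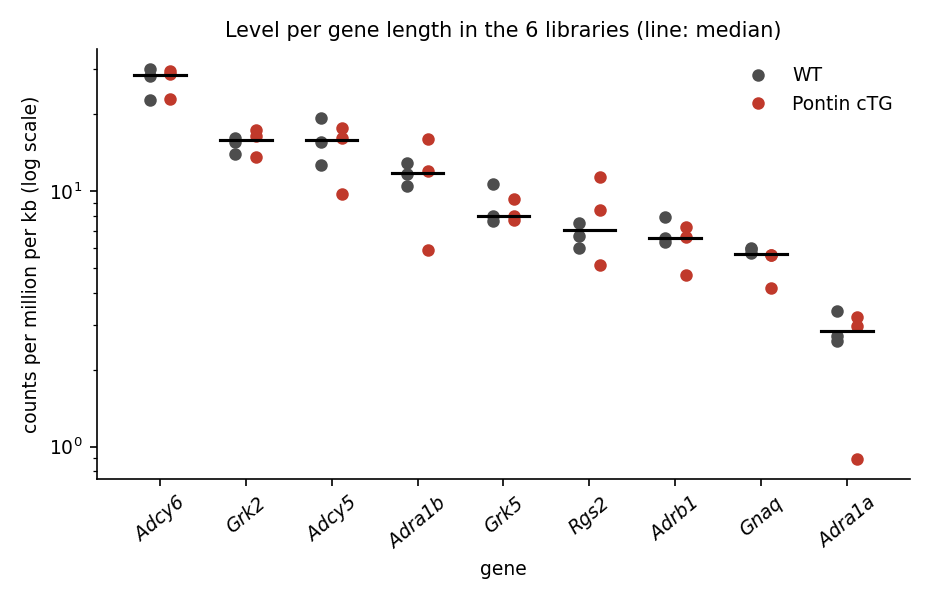
CPM per kb of gene length (y axis, log scale) of the 9 genes in WT (grey) and Pontin cTG (red) libraries, ordered by the median (line). Adcy6 lies above all other genes at a median of 28.4, and the lowest point is Adra1a in Pontin cTG replicate 2, at 0.891.

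What the genes shared was the position of 1 heart. Pontin cTG replicate 2 was the lowest library for 7 of the 9, beside 30.7% of all genes tested, and the exceptions were Grk5 and Adcy6. Its departure from the mean of the other 5 libraries had a median of -0.55 on the log2 scale over the 9 genes, beside 0.018 over all genes. By role, the departures were -1.71 and -1.08 for the α1 receptors Adra1a and Adra1b, -0.55 for Adrb1, -0.47 for Gnaq, -0.59 for Rgs2, -0.72 for Adcy5, -0.28 for Adcy6, and -0.22 and -0.16 for the kinases Grk2 and Grk5. In that heart the α1A receptor thus lay farthest below the others and the kinases least far, which is a description of 1 library.

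Other features of Pontin cTG replicate 2 are described beside these low values, from 1 library. Nppa, which encodes atrial natriuretic peptide, a marker of stressed ventricle as well as of atrium, had 1551, 858 and 1842 normalised counts in WT and 1205, 7716 and 360 in Pontin cTG. Of the atrial markers, 2 of 5 (Nppa and Myl4) were highest in that heart, whereas Myl7, Sln and Bmp10 had 0 counts there. The 7 fibroblast markers, of which Dcn was the most abundant, summed to 14015, 18772 and 11849 normalised counts in WT and 13838, 20724 and 11493 in Pontin cTG, and 4 of 7 were highest in replicate 2. The 7 endothelial markers, led by Kdr, summed to 13987, 15595 and 14062 in WT and 13362, 17681 and 12193 in Pontin cTG, and 5 of 7 were highest there. The sum of cardiomyocyte markers in that heart, 775235, lay within the range of the others, with 2 of 8 highest and 2 of 8 lowest there. Of the latter, Ryr2, the calcium release channel of the sarcoplasmic reticulum, named after its values were seen, had 10842 normalised counts in that heart and 16789 to 24380 in the others. No cardiomyocyte, fibroblast or endothelial marker was at 0 in any library. Markers of smooth muscle and pericytes (most abundant Rgs5), macrophages (Lyz2), erythroid cells (Hbb-bs) and Schwann cells and sympathetic nerve (Dbh) summed to values within the range of the other 5 libraries, and adipocyte markers (Cidec) summed to at most 7.81 in any library. Genes with at least 1 count numbered 21639 in Pontin cTG replicate 2 and 19554 to 20400 in the others. The Spearman correlation across genes between a library's departure and gene length was -0.20 in Pontin cTG replicate 2, -0.16 and 0.084 in Pontin cTG replicates 3 and 1, and 0.11 to 0.18 in WT, where genes are not independent replicates. The part of cell composition, RNA quality and stress in the low values was not tested, and in bulk tissue fewer cells of a type and less RNA per cell cannot be told apart.

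In 10 lists of other genes of these pathways, 104 of 117 genes were tested and none passed the adjusted threshold by edgeR, with 42 higher, 62 lower and a median log2 difference of -0.073. Before adjustment, 1 higher and 3 lower genes passed a threshold of 0.05, 4 of 104 beside 2.05% of all genes. Pontin cTG replicate 2 was the lowest library for 40 of the 104, or 38.5%.

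The lower genes were Rgs6, Akap6 and Pde5a, and the groups did not overlap in any of them. Over the 10 lists, 7 of 104 genes had groups without overlap, beside 8.33% of all genes tested. Rgs6 encodes an RGS protein that acts on Gi and Go and shapes the vagal response of the heart. It had 361, 325 and 423 normalised counts in WT and 266, 261 and 322 in Pontin cTG (log2 difference -0.39, SE 0.15, adjusted p = 0.999 by edgeR), and -0.33 without Pontin cTG replicate 2. Akap6 encodes a scaffold that anchors protein kinase A at the nuclear envelope of cardiomyocytes. Its normalised counts were 3218, 3391 and 3105 in WT and 2848, 1461 and 2288 in Pontin cTG (log2 difference -0.56, SE 0.22, adjusted p = 0.999 by edgeR), and the difference was -0.33 without replicate 2. Pde5a encodes the cGMP-specific phosphodiesterase that sildenafil inhibits, and it had 91.4, 122 and 106 in WT and 78.1, 67.6 and 77.1 in Pontin cTG (log2 difference -0.52, SE 0.20, adjusted p = 0.999 by edgeR). Here the Pontin cTG hearts were close together, and the difference was -0.46 without replicate 2.

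The higher gene was Dusp1, a phosphatase of MAP kinases that cAMP induces. It had 580, 550 and 762 normalised counts in WT and 909, 697 and 929 in Pontin cTG, a log2 difference of 0.42 (SE 0.17, adjusted p = 0.999 by edgeR). Pontin cTG replicates 1 and 3 were above all WT hearts and replicate 2 was not, as for Rgs2, and without replicate 2 the difference was 0.54 (adjusted p = 0.889 by edgeR). The cAMP response list as a whole had 6 genes higher and 3 lower of 9 tested (median 0.11), and the smallest p among the lower ones belonged to Ppargc1a (-0.26, SE 0.21), a regulator of mitochondrial biogenesis.

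**Figure D5:**
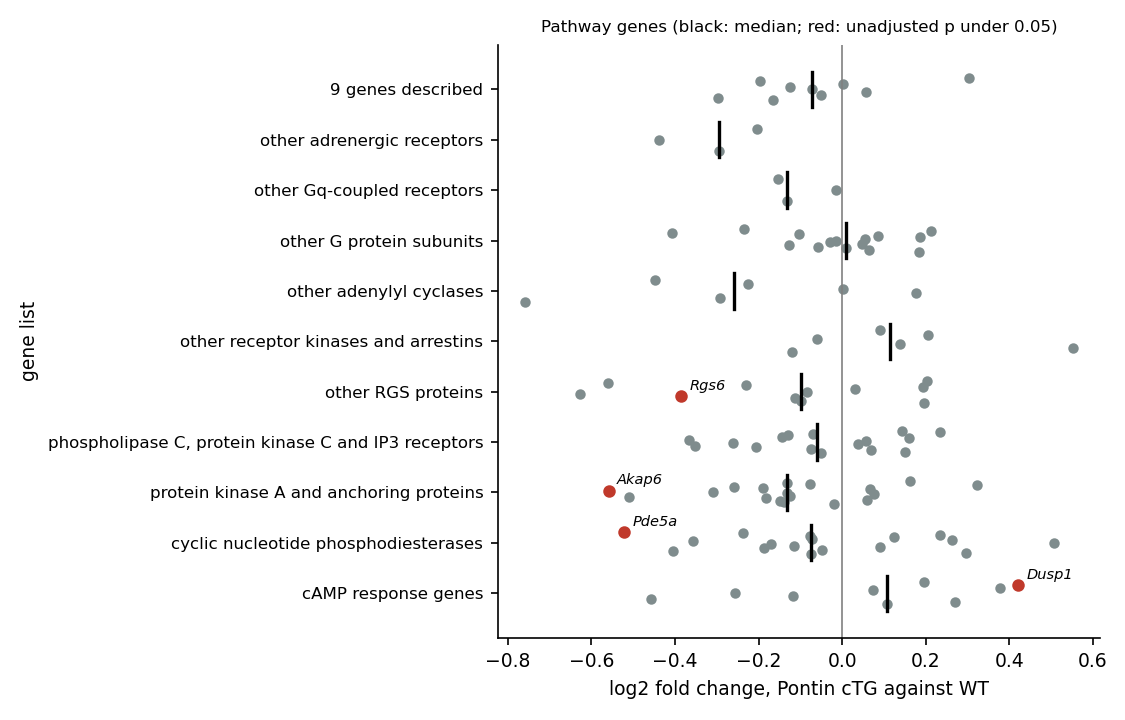
Log2 fold change of Pontin cTG against WT (x axis) for each tested gene (points) of the 9 genes described and of 10 pathway lists (rows), with the median of each list as a black bar and genes with an unadjusted p under 0.05 in red. The red points are Dusp1 on the right and Rgs6, Akap6 and Pde5a on the left, and list medians lie between -0.29 and 0.11.

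In the remaining lists, the genes named here, other than Agtr1a, had the smallest p on their side and all had an adjusted p of 0.999 by edgeR. Of 3 other Gq-coupled receptors tested, all were lower, with Ednrb, the endothelin B receptor, at -0.15 (SE 0.14). Ednrb became -0.066 when replicate 3 of Pontin cTG was dropped, -0.072 when WT replicate 2 was, and -0.23 when WT replicate 3 was. The angiotensin receptor Agtr1a, chosen after its values were seen because Ang-II acts on it, had 466, 390 and 389 normalised counts in WT and 314, 281 and 541 in Pontin cTG, with overlapping groups. Of 15 other G protein subunits, 8 were higher and 7 lower, led by the γ subunits Gng5 (0.21, SE 0.12) and Gng12 (-0.23, SE 0.13), and in 3 of the 15 WT and Pontin cTG hearts lay apart, beside 8.33% of all genes. Of 6 other adenylyl cyclases, 2 were higher and 4 lower, with Adcy4 at 0.18 (SE 0.23) and Adcy1 at -0.76 (SE 0.44). Adcy1 was low throughout, with 62.8, 50.5 and 71.5 normalised counts in WT and 62.5, 15.4 and 32.1 in Pontin cTG, and its log2 difference was -0.39 without Pontin cTG replicate 2 and -1.37 without replicate 1. Of the 6, 3 were lowest in Pontin cTG replicate 2, whereas Adcy4 was highest there, at 161% of the WT mean.

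The other receptor kinases and arrestins did not share that low value. None of the 6 tested was lowest in Pontin cTG replicate 2, where their median departure was 0.33 on the log2 scale. Of these, 4 were higher and 2 lower in Pontin cTG, with Grk4 at 0.55 (SE 0.42), on 9 to 37 counts a library, and Grk3 at -0.12 (SE 0.13). Grk4 was at 0.25 without WT replicate 1 and 1.00 without WT replicate 3, and Grk3 at -0.075 without the latter. Of 11 other RGS proteins, 4 were higher and 7 lower, with Rgs3, a regulator of Gq and Gi, at 0.19 (SE 0.18). Among 16 genes of phospholipase C, protein kinase C and IP3 receptors and related effectors, 7 were higher and 9 lower, with protein kinase Cα (Prkca) at -0.21 (SE 0.14), which became -0.31 when WT replicate 2 was dropped or -0.13 when WT replicate 3 was. In the protein kinase A and anchoring list, 13 of 18 genes were lower (median -0.13), beside 6912 of 13888 over all genes tested. Of the 18, 11 were lowest in Pontin cTG replicate 2, beside 30.7% of all genes, with a median departure of -0.34 there. The gene of this list with the smallest p among those higher was Rapgef3 (0.32, SE 0.23), a cAMP-activated exchange factor. Of 17 phosphodiesterases, 6 were higher and 11 lower, with Pde4c at 0.51 (SE 0.28). Without Pontin cTG replicate 2 the log2 differences were 0.14 for Pde4c, -0.0086 for Rapgef3, -0.0088 for Rgs3, -0.17 for Adcy4 and -0.035 for Ppargc1a.

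Over the 6 libraries, the gene most like each of the 9 in log2 CPM was found among 12199 genes by Pearson's r, as a description in which 1 library carried much of the spread. These were Chsy1 for Adrb1 (r = 0.997), Tbc1d14 for Adra1a (0.996), Sucla2 for Adra1b (0.999), Fam8a1 for Grk2 (0.999), Macir for Grk5 (0.984), Prdm2 for Adcy5 (0.998), Vapb for Adcy6 (0.996), Osbpl8 for Gnaq (0.997) and Plcb2 for Rgs2 (0.961). Osbpl8, for example, had 2002, 1687 and 1970 normalised counts in WT and 1695, 875 and 1721 in Pontin cTG, with its lowest value in the same heart as Gnaq. Macir, the gene most like Grk5, was instead highest in WT replicate 2, at 95.3 normalised counts against 48.5 to 66.7 in the others. Plcb2, a phospholipase Cβ, had 26.4, 35.9 and 31.3 normalised counts in WT and 42.0, 24.8 and 37.2 in Pontin cTG, high in the same hearts as Rgs2.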

How the data were processed

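Total RNA from heart tissue was extracted with Trizol and sequenced, 1 library per mouse. The authors deposited 1 table of raw counts per gene with gene lengths, positions and biotypes. The submitters' processing notes name fastp, HISAT2, featureCounts, DESeq2 and GRCm39, whereas the study's methods name Trimmomatic, STAR and mm10, so the aligner is uncertain. The methods also mention an outlier excluded after principal component analysis, which is not identified, and the table holds 3 libraries a group.

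Libraries were grouped by the genotype in the labels. Genes were kept with edgeR's filterByExpr (minimum count 10), scaled by TMM and compared with edgeR 4.0.16 (robust quasi-likelihood test, genotype as the only term), with Benjamini-Hochberg adjustment over 13888 genes and a threshold of 0.05, after tests on simulated data. Intervals are 95%. Levels between genes are CPM per kb of the deposited length. Ratios between genes were compared by exact permutation tests over all divisions of the libraries, with Benjamini-Hochberg adjustment in scipy 1.17.1. Alternatives, 13 in all, were DESeq2 1.42.0, other size factors, no or a stricter filter, a replicate block, limma-voom (limma 3.58.1) with sample quality weights, and leaving out each library. Pairs of libraries differed by more than counting noise. Depth was 12436822 to 16888124 counts. The p-values measure the spread between these 6 mice.

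The members and lists were chosen with earlier results of these data known. Named genes are the 9, Ruvbl1 and Myh6, the other adrenergic receptors, in each other list the tested gene with the smallest p in each direction, the gene most like each of the 9 (mean log2 CPM of at least 1), and the most abundant gene of each marker list. Some genes that this rule names are not reported here.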

Additional observations from a re-analysis of the deposited data

How the results depend on the processing

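None of the 9 genes passed under any of 13 alternatives, in which the smallest adjusted p was 0.844, for Rgs2. Over all genes, DESeq2 called 1 gene (Scd4), no filter on low counts called 3 (Npc1, Scd4 and Tfrc) and limma-voom with sample quality weights called 3 (Egr1, Impact and Scd4), and leaving out 1 library called 0 to 3, the 3 without Pontin cTG replicate 2. Egr1, Impact, Npc1, Scd4 and Tfrc were named after their values were seen. Over the 13, the log2 difference ranged from -0.29 to -0.0020 for Adrb1, from -0.27 to -0.064 for Gnaq and from 0.022 to 0.62 for Rgs2, with no change of sign. With limma-voom weights the log2 difference turned to 0.031 for Adra1a, 0.033 for Adra1b, 0.061 for Grk5, 0.031 for Adcy5, -0.11 for Adcy4 and -0.026 for Rgs3, and Adcy6 turned to -0.0014 with DESeq2 and -0.0048 without a filter. Leaving out 1 library gave -0.58 to 0.097 for Adra1a, -0.39 to 0.26 for Adra1b, -0.010 to 0.15 for Grk2, -0.16 to 0.095 for Grk5, -0.28 to 0.094 for Adcy5, -0.11 to 0.11 for Adcy6, -0.29 to 0.033 for Myh6, -0.17 to 0.36 for Adcy4, -0.0088 to 0.36 for Rgs3, -0.0086 to 0.48 for Rapgef3 and -0.10 to 0.22 for the Grk2 over Grk5 ratio. The cause of these turns was not tested. With the longest coding transcript as length, the median level per kb was 31.9 for Adcy6, 21.01 for Grk2 and 5.79 for Adra1a. Grk4 could not be fitted with the stricter filter.

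The shared replicate numbers do not pair the mice by the labels. After the mean of its own group was subtracted from each heart's log2 CPM, same-numbered hearts had correlations over genes of 0.077, 0.43 and 0.19. These are correlations of departures from the group mean and not of expression levels, and differently numbered hearts are not given for comparison. With a replicate block, 0 genes passed and 499 lay under an unadjusted p of 0.05. Adra1a was then at -0.45, Adra1b at -0.15 and Rgs2 at 0.25, and no call changed among the 9. At the depth of these libraries Adrb3, Adra2a and Adra2c were too scarce to be tested.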
